A study of Homo sapiens with 6 samples.

Results

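The genes described here encode factors that act on RNA polymerase II after it has started a transcript: kinases of its C-terminal tail, elongation and pausing factors, the Integrator complex, and the factors that cut and end the transcript. A total of 45 genes were chosen by name from these complexes, with earlier results of these data known. Of the 45, 43 were measured among 19775 genes. NELFA and NELFE, which encode subunits of the negative elongation factor, had no probe set annotated to them alone and are not analysed here. The cells were MV4;11, an established leukaemia line of myeloid type that carries a rearranged MLL gene (MLL-AF4), and each of 6 arrays measured 1 well. After 3 h, 3 wells held the solvent DMSO and 3 held 25 nM of the natural product cortistatin A (CA in the labels), which blocks the Mediator kinases CDK8 and CDK19. The comparison asks which transcripts differ early after that block. Both groups share the line, the growth medium and the time in culture. A single line limits the model, and the labels describe wells plated in triplicate without naming separate cultures, so each p-value reflects the spread among these wells alone, which may be technical.

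After initiation, CDK7 with cyclin H and MNAT1 phosphorylates the tail of the polymerase, and the polymerase then pauses close to the start site under DSIF and NELF. Release needs the kinase P-TEFb, which is delivered by the super elongation complex, while the PAF1 complex, SPT6 and TFIIS help the polymerase through chromatin and the kinases CDK12 and CDK13 sustain it over long genes. Integrator cleaves short and paused transcripts and brings a phosphatase to the polymerase, and at the end of the gene CPSF, CSTF and PCF11 recognise and cut the RNA, PNUTS with protein phosphatase 1 slows the polymerase, and the exonuclease XRN2 degrades what remains attached.

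Most of the differences were small, and the widest were those of 3 genes from the paths that end transcription. PPP1R10, which encodes PNUTS, and INTS6L, which encodes a paralogue of an Integrator subunit, fell with cortistatin A. INTS6, the gene of that subunit, had a difference of the same size that missed the threshold. A further 40 measured genes lay between -0.22 and 0.19 on the log2 scale on their brightest probe sets. Dimmer probe sets of some of them, such as those of AFF4 (-0.48), CDK13 (0.32) and XRN2 (-0.30), lay outside that range and did not pass. Of the 43 genes, 0 rose and 2 fell (limma, adjusted p under 0.05 over all 19775 genes), beside 0.582% of all genes called, 0.137% lower and 0.445% higher. In bulk samples fewer cells of a type and less RNA per cell cannot be told apart. Before adjustment, a limma p under 0.05 was reached by 1 of them with a higher and 6 with a lower level (6.81% and 5.83% of all genes).

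The stretches before the RefSeq start sites of PPP1R10, INTS6L and INTS6 are shown because these 3 genes carry the differences and because INTS6 and INTS6L are paralogues. They span 250 bases each in GRCh38.p14, PPP1R10 at chr6:30617244-30617493 on the minus strand, INTS6L at chrX:135520410-135520659 on the plus strand and INTS6 at chr13:51453037-51453286 on the minus strand. Capitals mark matches on either strand to the motifs TATAAA (the TATA box), CCAAT (the CCAAT box), GGGCGG (the GC box) and ATGCAAAT (the octamer), which were chosen with these sequences in view.
PPP1R10: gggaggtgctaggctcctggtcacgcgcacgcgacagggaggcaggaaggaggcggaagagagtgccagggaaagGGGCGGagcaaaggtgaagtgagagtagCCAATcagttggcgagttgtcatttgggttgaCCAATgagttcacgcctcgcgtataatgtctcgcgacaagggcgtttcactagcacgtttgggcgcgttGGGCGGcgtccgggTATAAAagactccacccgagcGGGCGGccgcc
INTS6L: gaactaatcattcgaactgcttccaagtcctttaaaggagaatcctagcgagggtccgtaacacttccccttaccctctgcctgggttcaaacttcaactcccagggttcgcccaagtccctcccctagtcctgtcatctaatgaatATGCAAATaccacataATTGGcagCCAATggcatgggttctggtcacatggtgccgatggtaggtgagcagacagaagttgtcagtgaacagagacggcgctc
INTS6: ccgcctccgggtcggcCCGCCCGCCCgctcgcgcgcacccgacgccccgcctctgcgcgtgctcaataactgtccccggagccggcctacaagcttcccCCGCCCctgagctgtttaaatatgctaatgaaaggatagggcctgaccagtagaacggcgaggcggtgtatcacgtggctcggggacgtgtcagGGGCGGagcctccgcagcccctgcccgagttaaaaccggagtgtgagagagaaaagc

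The PPP1R10 stretch held 1 TATAAA, 32 to 27 bases before the start, with 2 CCAAT and 3 GGGCGG matches. The INTS6L stretch held 1 ATGCAAAT and 2 CCAAT matches and no GGGCGG, and the INTS6 stretch held 4 GGGCGG matches, of which the pair at its far end overlap. The stretches of the paralogues had none of these motifs in common. Over 35116 such windows of all genes, TATAAA occurred in 10.7%, CCAAT in 32.0%, GGGCGG in 42.6% and ATGCAAAT in 1.63%. RefSeq windows were at hand for 36 of the 43 genes (41 windows), and PPP1R10 was the one gene among them with TATAAA and INTS6L the one with ATGCAAAT. CCAAT occurred in 14 (34.1%) and GGGCGG in 28 (68.3%) of the 41 windows, which belong to 13 and 27 of the 36 genes. A match describes letters only.

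**Figure D1:**
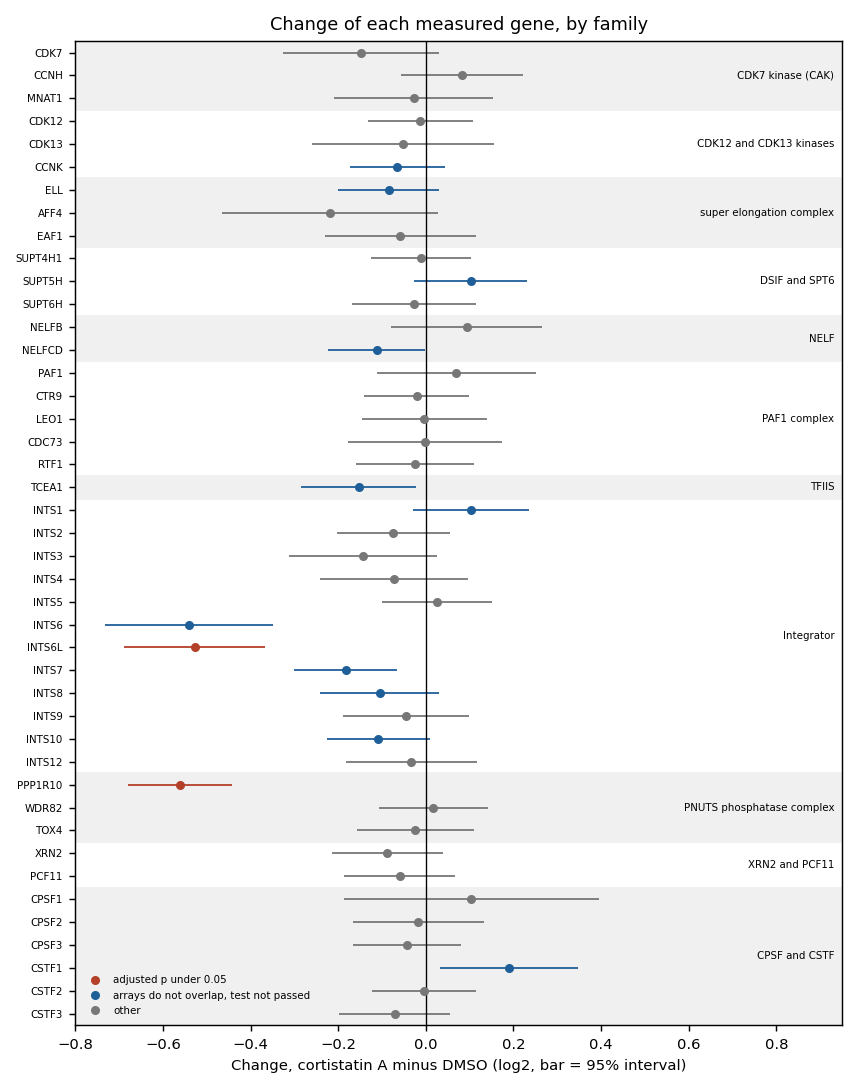
Change of each measured gene (cortistatin A minus DMSO, log2 scale, n = 3 arrays per group) with its 95% limma interval, grouped by complex. PPP1R10, INTS6L and INTS6 stand near -0.5, and the 40 other genes lie between -0.22 and 0.19, each on its brightest probe set.

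PPP1R10 encodes PNUTS, a regulatory subunit that holds protein phosphatase 1 in the nucleus and is needed to slow the polymerase beyond the poly(A) site. Its level was 6.82, 6.80 and 6.90 on the DMSO arrays and 6.29, 6.26 and 6.27 on the cortistatin A arrays (log2 RMA signal). All cortistatin A arrays lay below all DMSO arrays, and the treated arrays were the more alike. The mean of the DMSO arrays was 6.84 ± 0.051 and that of the treated arrays 6.28 ± 0.016 (SD, n = 3). PPP1R10 fell by 0.56 ± 0.050 on the log2 scale (limma adjusted p = 0.0188), a 1.48-fold lower signal, with a 95% interval of -0.68 to -0.44. It ranked 15 among all genes by p, and over 14 alternatives its adjusted p ran from 3.71e-05 to 0.440. Its other probe set read 5.82, 5.64 and 5.86 in DMSO and 5.20, 5.37 and 5.17 in cortistatin A, a difference of -0.53 ± 0.088 (limma adjusted p = 0.131 over all probe sets). The probe sets of PPP1R10 therefore lay in the same direction. Both are of the _s_at type, which can match several transcripts, and without such probe sets the gene was not measured.

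The partners of PNUTS were closer to 0. WDR82, which ties PNUTS to the polymerase tail, differed by 0.017 ± 0.052 (limma adjusted p = 0.926), and TOX4 by -0.025 ± 0.056 (limma adjusted p = 0.896). The 95% intervals were -0.11 to 0.14 for WDR82 and -0.16 to 0.11 for TOX4, which leave out the size seen for PPP1R10. A dimmer TOX4 probe set did not overlap, at -0.11 ± 0.072 (limma adjusted p = 0.673 over all probe sets). The genes of the catalytic subunits of protein phosphatase 1 lay at -0.095 for PPP1CA, -0.093 for PPP1CB and -0.13 for PPP1CC, and none of them passed the test (limma adjusted p = 0.336 to 0.552). The arrays of PPP1CB and PPP1CC did not overlap between the groups, and those of PPP1CA did.

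INTS6 and INTS6L encode related proteins that occupy the phosphatase-recruiting part of Integrator. INTS6L read 4.83, 4.90 and 4.97 in DMSO and 4.48, 4.31 and 4.32 in cortistatin A. The groups did not overlap, and 1 treated array was higher than the other two. INTS6L fell by 0.53 ± 0.068 (limma adjusted p = 0.0338), a 1.44-fold lower signal, with a 95% interval of -0.69 to -0.37. Over 15 alternatives its adjusted p ran from 0.00518 to 0.464. It has 1 single-gene probe set, so no other probe set bears on the value. INTS6 read 7.91, 7.79 and 7.63 in DMSO and 7.22, 7.19 and 7.30 in cortistatin A. The DMSO arrays of INTS6 were more scattered (SD 0.14) than the treated arrays (SD 0.056), again without overlap. The difference of INTS6 was -0.54 ± 0.080 (limma adjusted p = 0.0545), with a 95% interval of -0.73 to -0.35. Its call therefore lay just outside the threshold, and over its 15 alternatives the adjusted p ran from 0.000157 to 0.454.

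INTS6 had 4 probe sets. The others above the median of all probe sets differed by -0.57 ± 0.090 and by -0.33 ± 0.069 (limma adjusted p = 0.116 and 0.215 over all probe sets). On both of them every cortistatin A array was below every DMSO array. The last, which lay below that median at a mean of 2.26, differed by 0.19 ± 0.094 with overlapping groups. With the mean of all probe sets the INTS6 value was -0.31 (limma adjusted p = 0.149). The gap between INTS6 and INTS6L in size of change was not tested.

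**Figure D2:**
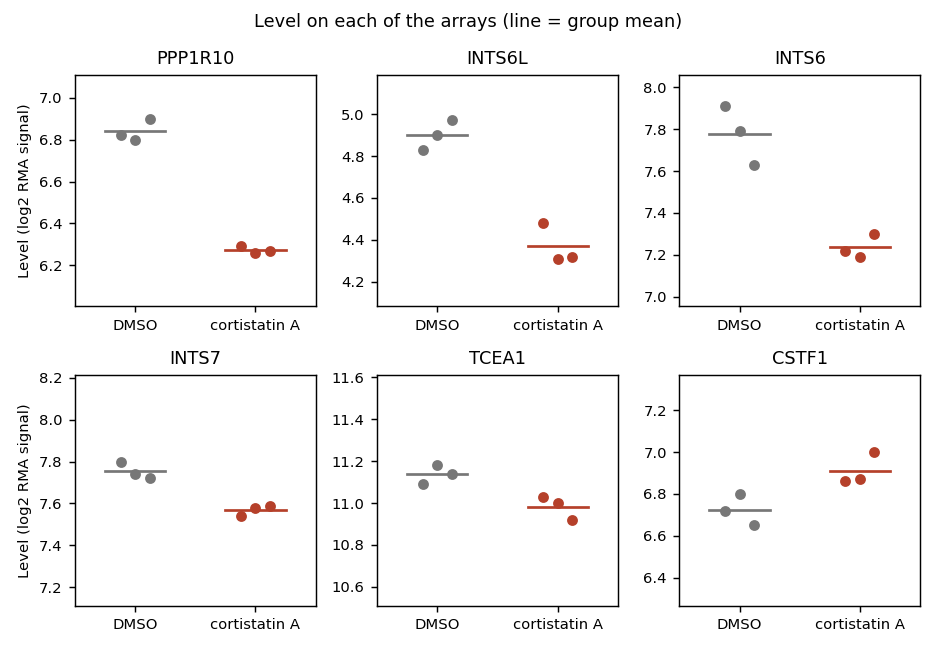
Level of 6 genes on each array (log2 RMA signal, 3 DMSO and 3 cortistatin A arrays, lines are group means, all panels span the same range). For PPP1R10, INTS6L and INTS6 the groups are separated by more than the spread within either group, while the gaps of INTS7, TCEA1 and CSTF1 are smaller.

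The rest of Integrator stayed within narrower bounds. Of the 12 Integrator genes among the 43, 1 was called, beside 0.582% of all genes. A negative difference was found for 10 of the 12 and a positive one for 2, and their median was -0.090, beside 0.0065 for all genes. Without INTS6 and INTS6L the median of the remaining 10 was -0.074, with values from -0.18 to 0.10. INTS7, a helical repeat subunit, read 7.80, 7.74 and 7.72 in DMSO and 7.54, 7.58 and 7.59 in cortistatin A. The groups of INTS7 did not overlap, and its difference of -0.18 ± 0.049 did not pass (limma adjusted p = 0.212). Its other probe set above the median of all probe sets was at -0.16 with overlapping groups. INTS10, a subunit of the module that binds nucleic acid, went from a mean of 9.52 ± 0.025 to 9.41 ± 0.040 (SD, n = 3). INTS8, which contacts the phosphatase, went from 9.13 ± 0.057 to 9.03 ± 0.055 (SD, n = 3). On these brightest probe sets neither INTS10 nor INTS8 overlapped between groups, and neither passed (limma adjusted p = 0.428 and 0.510). The other INTS10 probe set above the median of all probe sets was at -0.075 with overlap. Below that median, an INTS10 probe set with a mean of 3.43 lay the other way without overlap, at 0.34 ± 0.11 (limma adjusted p = 0.369 over all probe sets). The last was at 0.11 with overlap. INTS1, the large scaffold subunit, lay the other way at 7.08, 7.05 and 7.10 against 7.14, 7.14 and 7.26, a difference of 0.10 ± 0.055 (limma adjusted p = 0.508). INTS2, INTS3, INTS4, INTS5, INTS9 and INTS12 overlapped between the groups and ranged from -0.14 for INTS3 to 0.025 for INTS5. The catalytic subunit gene INTS11, listed among other genes of the pathway, was at 0.023 ± 0.054, and INTS13, INTS14 and INTS15 were between -0.027 and 0.017.

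**Figure D3:**
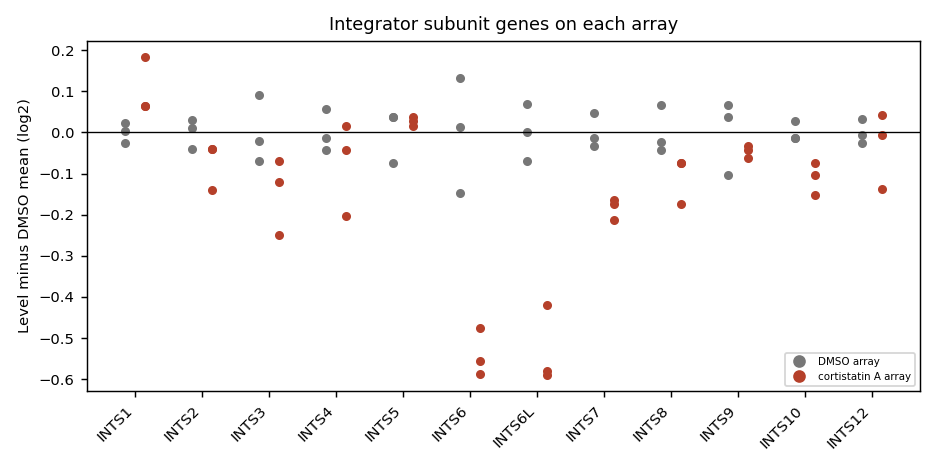
Level of each of the 12 Integrator genes among the 43 on each array, minus the mean of its DMSO arrays (log2 scale). The cortistatin A arrays of INTS6 and INTS6L lie between -0.59 and -0.42, and those of the 10 other genes lie between -0.25 and 0.19.

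Kinases of the polymerase tail gave no call. CDK7, the kinase of TFIIH, read 7.66, 7.60 and 7.68 in DMSO and 7.48, 7.38 and 7.64 in cortistatin A, and 1 treated array lay within the DMSO range. Its difference was -0.15 ± 0.074 (limma adjusted p = 0.479), and that of its cyclin CCNH was 0.082 ± 0.058 (limma adjusted p = 0.626). The assembly factor MNAT1 was at -0.028. Cyclin K, encoded by CCNK and shared by CDK12 and CDK13, had the tightest DMSO arrays of the 43 genes (8.66, 8.67 and 8.65) against 8.60, 8.58 and 8.62, and did not overlap, yet its difference was -0.065 ± 0.045 (limma adjusted p = 0.614). CDK12 was at -0.012 on its brightest probe set, while the next read 7.61, 7.76 and 7.62 against 7.81, 7.81 and 7.92, without overlap, a difference of 0.19 ± 0.073 (limma adjusted p = 0.457 over all probe sets). The remaining CDK12 probe sets above the median of all probe sets lay between -0.036 and 0.055 with overlap. For CDK13 the probe sets disagreed. The brightest, of the _x_at type, differed by -0.053 ± 0.087, the next by 0.18 ± 0.071 and another by 0.32 ± 0.068. The latter pair did not overlap between the groups and did not pass (limma adjusted p = 0.45 and 0.218 over all probe sets). With the _x_at and _s_at types left out the CDK13 value was therefore 0.32 (limma adjusted p = 0.141).

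Elongation and pausing factors gave no call either. In the super elongation complex, the scaffold gene AFF4 read 6.65, 6.80 and 6.81 in DMSO and 6.69, 6.32 and 6.59 in cortistatin A, with overlap and a difference of -0.22 ± 0.10 (limma adjusted p = 0.451). This was the widest difference outside the 3 genes above among the brightest probe sets. The AFF4 interval of -0.47 to 0.028 was the widest but 1 among them. A dimmer AFF4 probe set read 4.27, 4.11 and 4.65 against 4.10, 3.64 and 3.84, without overlap, a difference of -0.48 ± 0.16 that did not pass over all probe sets (limma adjusted p = 0.401). The elongation factor ELL went from 5.76 ± 0.034 to 5.68 ± 0.025 (SD, n = 3) without overlap (limma adjusted p = 0.531), and EAF1 was at -0.058. SUPT5H, the large subunit of DSIF, read 7.70, 7.61 and 7.71 against 7.76, 7.74 and 7.83, a positive difference of 0.10 ± 0.054 without overlap (limma adjusted p = 0.505). Its partner SUPT4H1 was at -0.010 and the histone chaperone gene SUPT6H at -0.027. In NELF, NELFCD read 8.94, 8.97 and 8.95 in DMSO and 8.86, 8.85 and 8.81 in cortistatin A. NELFCD did not overlap on any of its 4 probe sets, which differed by -0.090 to -0.15, but the difference of its brightest probe set, -0.11 ± 0.046, did not pass (limma adjusted p = 0.385). All 4 are of the _x_at type and need not be independent. NELFB was at 0.093 ± 0.072 (limma adjusted p = 0.655).

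On the brightest probe sets of the PAF1 complex no gene separated the groups. Its 5 genes PAF1, RTF1, CTR9, LEO1 and CDC73 lay between -0.025 and 0.069, all overlapped between the groups, and their limma adjusted p ran from 0.766 to 0.993. PAF1 read 7.00, 7.05 and 7.05 in DMSO and 7.02, 7.03 and 7.26 in cortistatin A, so that 1 treated array stood above the rest (difference 0.070 ± 0.076). RTF1 was at -0.025 ± 0.057 (limma adjusted p = 0.897). TCEA1, which encodes the TFIIS that restarts backtracked polymerase, read 11.09, 11.18 and 11.14 in DMSO and 11.03, 11.00 and 10.92 in cortistatin A. The groups did not overlap and the difference was -0.15 ± 0.055 (limma adjusted p = 0.322). A dimmer CDC73 probe set read 6.96, 6.95 and 7.06 in DMSO and 6.86, 6.72 and 6.92 in cortistatin A, without overlap, a difference of -0.15 ± 0.077 (limma adjusted p = 0.549 over all probe sets). The next probe set of TCEA1 lay at 0.14 ± 0.10 with overlap.

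Factors that cut the transcript and remove the polymerase gave no call. CSTF1, a subunit of the cleavage stimulation factor, read 6.72, 6.80 and 6.65 in DMSO and 6.86, 6.87 and 7.00 in cortistatin A. Its difference of 0.19 ± 0.066 (limma adjusted p = 0.303) was the highest positive one among the brightest probe sets of the 43 genes. The groups did not overlap on that probe set, while the other CSTF1 probe set gave 0.030 with overlap. CSTF3 was at -0.072 ± 0.053 (limma adjusted p = 0.639) and its other probe sets were at 0.16, without overlap, and 0.17, so its direction rests on the probe set. CSTF2 was at -0.0051, and the cleavage genes CPSF2 and CPSF3, of which CPSF3 encodes the endonuclease, were at -0.017 and -0.044. CPSF1 was represented by 1 probe set below the median of all probe sets (mean level in DMSO 2.98), so its value of 0.10 ± 0.12 says little. XRN2 read 7.97 to 8.02 on the DMSO arrays and 7.85 to 7.97 on the treated ones, a difference of -0.088 ± 0.053 (limma adjusted p = 0.557). A second, dimmer XRN2 probe set read 6.80, 6.69 and 6.67 in DMSO and 6.44, 6.35 and 6.46 in cortistatin A, without overlap. Its difference of -0.30 ± 0.069 did not pass (limma adjusted p = 0.25 over all probe sets). PCF11, which couples cleavage to release, was at -0.060 ± 0.053 (limma adjusted p = 0.704).

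**Figure D4:**
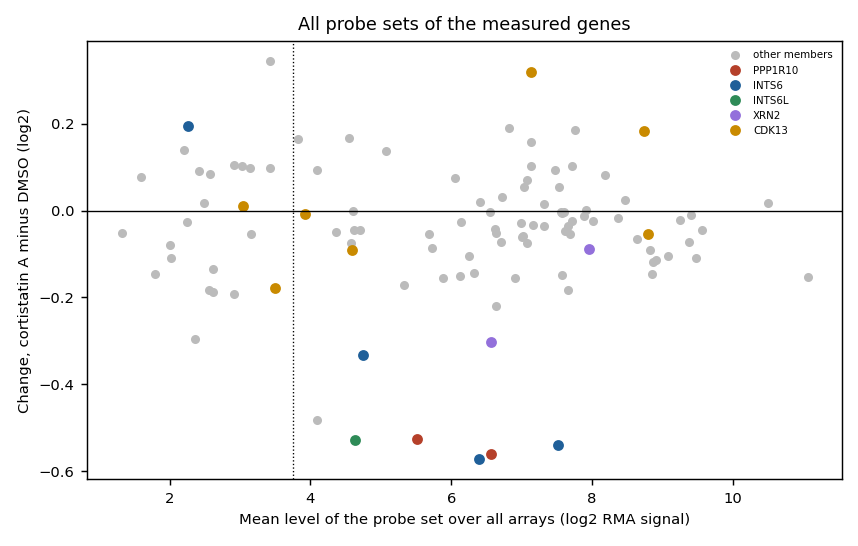
Change of all 108 probe sets of the 43 genes (cortistatin A minus DMSO, log2 scale) against their mean level, with the dotted line at the median of all probe sets on the array. The probe sets of PPP1R10 lie together near -0.5, as do those of INTS6 above the line except for 1 at -0.33, while those of CDK13 lie on both sides of 0.

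Among the 43 genes the arrays did not overlap for 13 (3 higher and 10 lower), or 30.2%, beside 19.4% of all genes, 10.2% higher and 9.22% lower. Genes above the median of all probe sets, to which 42 of the 43 belong, did not overlap in 25.0% of cases. A negative sign was found for 34 of the 43 genes (79.1%) and for 47.6% of all genes, and the median was -0.044 against 0.0065. With arrays centred on housekeeping genes the median of the 43 was 0.011 and that of all genes 0.061. That centring moves every gene alike by 0.054, and the median of the 43 lay 0.050 below that of all genes either way. Of the 41 genes that were not called, 32 had a 95% interval inside a 1.2-fold change in either direction. The interval of 40 lay inside a 1.5-fold change, with INTS6 as the exception. These counts use the brightest probe set of each gene only, and dimmer probe sets such as that of AFF4 reach further. Of 25 genes with more than 1 probe set above the median, 14 had all of them lower, 3 all higher and 8 both signs.

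Other genes of transcription elongation and 3' end processing, 74 in number with 70 measured, were compared with the same test. Of these 0 rose and 1 fell, beside 0.445% and 0.137% of all genes, and the median was -0.0040. Their arrays did not overlap for 25 (12 higher and 13 lower), or 35.7%, a larger share than the 30.2% of the 43 genes. A negative sign was found for 37 of the 70 (52.9%). The called gene was HEXIM1, which encodes the protein that holds P-TEFb inactive. HEXIM1 read 8.02, 8.03 and 8.17 in DMSO and 7.59, 7.33 and 7.50 in cortistatin A, and fell by 0.60 ± 0.082 (limma adjusted p = 0.0417, with 4.55e-05 to 0.844 over 15 alternatives). A second HEXIM1 probe set read 6.43, 6.23 and 6.35 against 5.66, 5.77 and 5.77, without overlap, a difference of -0.60 ± 0.076 (limma adjusted p = 0.0628 over all probe sets). Both are of the _s_at type, and the one that remains without that type, at -0.059, lies below the median of all probe sets (mean 2.69). The kinase gene CDK9 was at -0.11 ± 0.059 (limma adjusted p = 0.523). ELL2, a relative of ELL in the super elongation complex, read 5.89 to 6.01 on the DMSO arrays and 6.26 to 6.50 on the treated ones, a positive difference of 0.44 ± 0.078 that did not pass (limma adjusted p = 0.0861). RPRD1B, which binds the polymerase tail, was at -0.26 ± 0.051 on its brightest probe set (limma adjusted p = 0.119). With the mean of its 2 probe sets, both above the median of all probe sets, RPRD1B was at only -0.078 (limma adjusted p = 0.647). MLLT3, a reader subunit of the super elongation complex, was at -0.40 ± 0.086 near the floor of the array (mean level in DMSO 2.65, limma adjusted p = 0.140). The 12 measured RNA polymerase II subunit genes lay between -0.12 and 0.12 and gave no call.

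**Figure D5:**
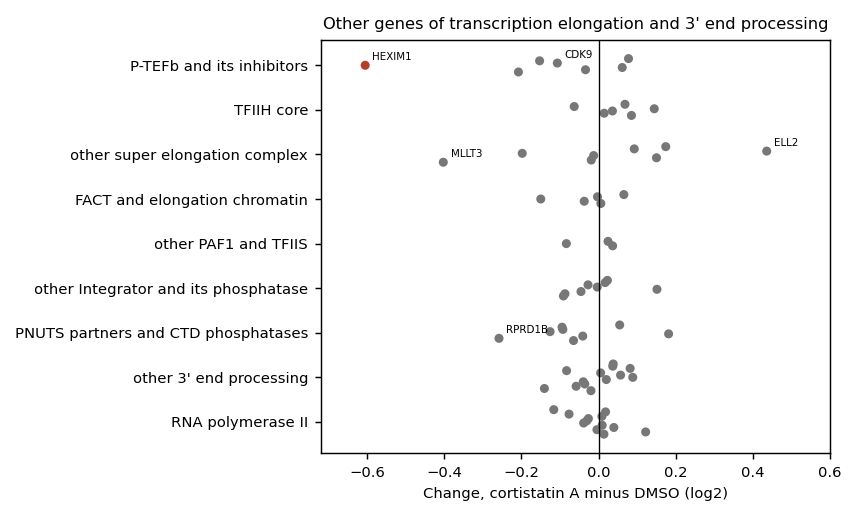
Change of 70 other genes of transcription elongation and 3' end processing (cortistatin A minus DMSO, log2 scale), grouped by complex, with the called gene HEXIM1 in red. ELL2 lies highest at 0.44 and HEXIM1 lowest at -0.60.

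The arrays resembled each other closely, at r = 0.9975 to 0.9979 across genes within the groups and 0.9969 to 0.9974 between them. Of the markers of the line, LYZ, FLT3, MEIS1, PTPRC, MPO and SPI1 lay above the median of all probe sets in both groups, and CD33 and HOXA9 were not measured by a single-gene probe set. FLT3 and MEIS1 did not overlap between the groups, at -0.20 and 0.17, without passing the test. Of the markers of other cells, MS4A1 (2.67 to 2.96), EPCAM, KRT19 and COL1A2 lay below that median, while CD3D, CD3E, HBB and COL1A1 lay above it and did not differ beyond their spread between the groups. For the beta-actin controls the signal at the 3' end exceeded that at the 5' end, a measure of RNA length, by 1.69 to 1.79 in DMSO and by 1.88 to 2.08 in cortistatin A. The same measure overlapped between the groups for GAPDH (1.04 to 1.13 against 1.12 to 1.17). An index averaged over all 22 controls overlapped as well (0.65 to 0.75 against 0.72 to 0.77). That index was not limited to human transcripts, so it need not reflect the RNA length of these samples. With the beta-actin difference, picked after these values were seen, as a covariate the changes of PPP1R10, INTS6L and INTS6 were -0.58, -0.47 and -0.60, and none was called (limma adjusted p = 0.440, 0.464 and 0.454). The calls also rested on all 6 arrays. Leaving out any single array ended both, with PPP1R10 between -0.58 and -0.53 (limma adjusted p = 0.0845 to 0.107) and INTS6L between -0.58 and -0.49 (limma adjusted p = 0.107 to 0.148).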

How the data were processed

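Expression was measured in 3 DMSO and 3 cortistatin A samples on Affymetrix Human U133 Plus arrays. The authors deposited 1 log2 value per probe set; RMA and affy, without versions, are named by the submitters' processing notes. The labels give 2 RNA isolation kits without saying which sample had which. The scale was inferred from the values (0.81 to 13.84), and the array medians were 3.74 to 3.77. RMA equalises the arrays, so a shift of all transcripts would not be seen. Precision is set by how few arrays there are. The genome build and any detection calls are not given in the sources used here.

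Of 54675 probe sets (62 controls), 41091 name 1 gene in the platform annotation, 1801 several and 11721 none. Symbols of 41037 were updated by gene identifier (RefSeq, GRCh38.p14). The brightest probe set stood for each of 19775 genes. Groups were compared with limma 3.58.1 in R 4.3.3 (lmFit, eBayes, 4 residual and 2.68 prior degrees of freedom, two-sided, Benjamini-Hochberg over all genes, threshold 0.05, no filter). Where no SD is named, ± gives the standard error from limma. For single probe sets the fit ran over all 54675. The step was tested on simulated data. Promoter sequences are from RefSeq.

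Named genes were those called, those without overlap between the groups and the 2 with the smallest p in each complex. Of the other genes of the pathway, those called, the 4 with the smallest p, CDK9 and HEXIM1 were named. Further genes and probe sets were named after their values were seen. The members and lists were chosen with earlier results of these data known. Alternatives were a replicate block, the mean of probe sets, probe set types, dim genes (not above the all-probe-set median), a further quantile normalization, centring on 21 housekeeping genes, variance models, 3' to 5' covariates and each array left out.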

Additional observations from a re-analysis of the deposited data

How the results depend on the processing

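The 2 calls among the 43 genes, PPP1R10 and INTS6L, both remained with the mean of all probe sets, without dim genes, with a further quantile normalization, with housekeeping centring and with trend and robust variances. The count was 3 without dim genes and with the further quantile normalization, where INTS6 was called too (adjusted p = 0.0187 and 0.047). It was 1 without the _x_at and _s_at types, where PPP1R10 was not measured, and 5 with trend and robust variances, where INTS6, INTS7 and TCEA1 were called too. It was 0 with the replicate block, with an index of 3' over 5' signal from all controls, with the beta-actin signal, with all probe sets tested as such (28 called in all) and without any 1 array (0 to 0). The last covariate and the test of all probe sets were chosen after seeing the data. The other genes of the pathway, with 1 call, gave 0 under the same settings and without the _x_at and _s_at types, 3 without dim genes, 2 with housekeeping centring and 7 with trend and robust variances, and 0 to 0 with an array left out. With an array left out or a covariate added fewer degrees of freedom remain, and otherwise the cause was not tested.

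Replicate numbers are shared between the groups, but the labels state no pairing. Arrays with the same number did not deviate together over all genes (r = -0.055, 0.009 and 0.016). With 3 arrays per group these values cannot show whether wells were handled in pairs, so the replicate block stays among the alternatives.

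Of 442 gene changes under alternatives, 23 had the opposite sign, all of genes that were not called. With the mean of all probe sets these were CDK13 (0.026), CCNK (0.017), INTS10 (0.067), CSTF3 (0.084) and CDK9 (0.067). Without the _x_at and _s_at types they were CDK13 (0.32), TCEA1 (0.14) and MLLT3 (0.13), with housekeeping centring CDK13 (0.0015), SUPT6H (0.027), RTF1 (0.030) and TOX4 (0.030), which turned by construction since all genes move by 0.054, and with the index of all controls RTF1 (0.0063). With the beta-actin signal they were SUPT5H (-0.0016), NELFB (-0.075), PAF1 (-0.12) and INTS1 (-0.018). With an array left out SUPT6H ranged from -0.069 to 0.0040, PAF1 from -0.0091 to 0.11, RTF1 from -0.064 to 0.011 and TOX4 from -0.059 to 0.0018.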
